A study of Mus musculus with 2 samples.

Results

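The 7 genes described here are Shh, Ptch1, Smo, Hhip, Gli1, Gli2 and Gli3, the ligand, receptors, inhibitor and transcription factors of the Sonic hedgehog pathway, out of 21728 protein-coding genes in the GENCODE vM21 annotation of mouse build mm10. They were chosen by name. For each gene, DNase-seq peaks were taken within 500 bp of its transcription start sites (TSSs) and in a span from 100 kb before to 100 kb after the gene, extended to 1 Mb on the upstream side of Shh. The 7 spans held 534 peaks of replicate 1 and 723 of replicate 2. Merged where they overlapped, these made 940 sites, of 583597 sites on chromosomes 1 to 19 and X.

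The tissue was midbrain of B6NCrl mouse embryos at 11.5 days of development, described in the labels as healthy and with no genetic change or treatment named. DNase I cuts DNA that is not covered by nucleosomes, so that regions rich in cuts mark accessible chromatin. There was 1 group with 2 biological replicates. Both were pools of embryos of either sex, with 1 donor label shared by both and a different pair of Illumina instruments behind each. No other tissue, stage or control was measured, and with 2 samples of 1 group no test across samples was possible.

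Hedgehog signalling runs by relief of inhibition. In the absence of ligand the receptor Ptch1 holds the membrane protein Smo inactive. Shh binding to Ptch1 frees Smo, which acts at the primary cilium to change the processing of the Gli zinc finger proteins, so that Gli2 and Gli3 repressor forms give way to activators. Gli1, Ptch1 and Hhip are themselves classic targets of the pathway, which gives it 1 positive and 2 negative feedback arms. In the developing midbrain Shh is made by the floor plate at the ventral midline and patterns the ventral progenitors. Dissected whole midbrain mixes those cells with all others, and in such bulk tissue fewer cells with an open site and a less open site in each cell cannot be told apart.

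The Gli proteins recognise the sequence GACCACCCA. Of the 167 consensus sites of the 7 spans, that is, sites holding a peak of both replicates, 4 contained an exact match on either strand within 150 bp around the midpoint. Of these, 3 lay at Ptch1 and 1 upstream of Smo. A match with any base at position 5, GACCNCCCA, added 2 sites of the Gli2 span. These 6 sites are printed here because they are the consensus sites around the 7 genes that hold the sequence of the pathway's own factors. With sites of 1 replicate included, 10 GACCNCCCA matches of the spans lay in a site. The bases are those of the plus strand of the RefSeq GRCm38.p6 genome, which has the mm10 coordinates, and capitals mark the match, read on the minus strand where they spell TGGGTGGTC or TGGGAGGTC. A Ptch1 exon overlaps the third, so 29 bases around the match are shown there.
Ptch1 chr13:63566316-63566545: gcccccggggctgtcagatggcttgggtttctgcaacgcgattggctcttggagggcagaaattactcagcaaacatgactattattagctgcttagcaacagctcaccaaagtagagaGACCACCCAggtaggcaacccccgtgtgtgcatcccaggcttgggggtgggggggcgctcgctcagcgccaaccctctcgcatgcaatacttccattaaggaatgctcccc
Ptch1 chr13:63569196-63569385: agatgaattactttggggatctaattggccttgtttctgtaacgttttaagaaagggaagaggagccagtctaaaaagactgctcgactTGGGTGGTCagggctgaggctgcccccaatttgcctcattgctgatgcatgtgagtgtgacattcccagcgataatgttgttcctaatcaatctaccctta
Ptch1 chr13:63573455-63573483: gccctcggcgTGGGTGGTCtgccgcgcca
Smo chr6:29718996-29719245: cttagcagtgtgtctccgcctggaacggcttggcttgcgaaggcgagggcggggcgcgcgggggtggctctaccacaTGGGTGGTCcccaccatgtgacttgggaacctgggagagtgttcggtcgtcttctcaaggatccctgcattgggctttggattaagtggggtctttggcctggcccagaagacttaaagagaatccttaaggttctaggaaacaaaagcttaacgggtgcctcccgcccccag
Gli2 chr1:118772416-118772585: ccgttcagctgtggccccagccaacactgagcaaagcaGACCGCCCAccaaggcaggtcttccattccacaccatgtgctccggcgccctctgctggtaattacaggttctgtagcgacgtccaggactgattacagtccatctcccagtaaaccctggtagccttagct
Gli2 chr1:118983036-118983325: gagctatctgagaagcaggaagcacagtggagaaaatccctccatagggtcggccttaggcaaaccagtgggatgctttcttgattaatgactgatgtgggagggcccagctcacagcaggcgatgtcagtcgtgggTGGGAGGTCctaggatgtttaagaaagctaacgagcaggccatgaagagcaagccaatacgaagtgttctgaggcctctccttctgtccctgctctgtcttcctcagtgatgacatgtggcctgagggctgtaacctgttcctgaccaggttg

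The first Ptch1 site was centred at -696 bp from the nearest start of a basic transcript (negative is upstream) and had a deposited peak signal of 125 in replicate 1 and 75 in replicate 2. The next, at -3556 bp, had signals of 63 and 36. The third belongs to a site at chr13:63573396-63573545, at -7736 bp from the basic starts and over the start of a further annotated Ptch1 transcript, with signals of 95 and 62. In these 3 sites the centre of the match lay 8, -2 and -2 bp from the centre of the site. The Smo site, in intergenic DNA at -16573 bp, had signals of 59 and 38, and its match lay -44 bp from the centre.

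Exact matches were sparse elsewhere in the spans. Chromosomes 1 to 19 and X held 17055 matches of GACCACCCA, of which 236, or 1.38%, lay in a consensus site. The 7 spans held 34, of which 4, or 11.8%, did so. These shares also depend on how dense the sites are. Consensus sites numbered 3.41 per 100 kb over all chromosomes, and from 2.05 in the Hhip span to 13.7 in that of Gli1. The Ptch1 span had 10.6. Of the 7 matches in the Ptch1 span, 3 lay in a consensus site and 1 more, at -19815 bp, in a weak peak of replicate 2 alone, with a signal of 11. The single match in the Smo span was in a consensus site. The 11 matches in the Shh span, 3 in that of Hhip, 4 in that of Gli1, 6 in that of Gli2 and 2 in that of Gli3 lay outside every peak of both replicates. Among distal consensus sites, over 2.5 kb from the TSS of every basic protein-coding transcript, 3 of 111 in the member spans held an exact match in their central 150 bp (2.7%), beside 122 of 60579 over all chromosomes (0.201%). Of the 3, 1 is the Ptch1 site over the start of a transcript outside the basic set. In a window of 300 bp the values were 3 of 111 (2.7%) and 213 of 60579 (0.352%). For GACCNCCCA in 150 bp they were 5 of 111 (4.5%) and 301 of 60579 (0.497%). Of all GACCNCCCA matches, 6 of 77 in the spans (7.79%) lay in a consensus site, beside 745 of 48018 over all chromosomes (1.55%). A match of letters is a description and does not show that a Gli protein was bound.

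The replicates differed in scale. Replicate 2 had 1.49 times as many peaks as replicate 1 (454408 against 305818), all 150 bp wide, with a lower median signal (8 against 18). Of all replicate 1 peaks 30.8% overlapped a peak of replicate 2, and of all replicate 2 peaks 21.7% overlapped one of replicate 1. Signals were therefore also ranked as percentiles within their own replicate. At consensus sites the percentile was higher in replicate 2 at 70.6% and the raw signal at 10.4%. Of the marker genes for midbrain neural cells 7 of 8 had a TSS peak in both replicates (En1, En2, Pax2, Otx2, Sox2, Pax6 and Nes), as had 4 of 4 neuron markers. None of 4 microglia and none of 4 endothelial markers had one in both replicates, beside 1 of 4 for erythroid cells (Epor), 2 of 4 for mesenchyme (Twist1 and Prrx1) and 2 of 4 for limb bud (Hand2 and Hoxd13). Such a peak in both replicates was present for 65.5% of all protein-coding genes, and lists of 4 or 8 genes are short. For the floor plate, the source of Shh, the markers Lmx1a (signals of 57 and 64) and Corin (28 and 41) had TSS peaks in both replicates. The defining factor Foxa2 had a peak in replicate 2 only, with a signal of 53.

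All 7 members had a peak within 500 bp of a TSS in both replicates, as did 65.5% of all protein-coding genes. The strongest TSS peak of Gli2 had a signal of 127 in replicate 1 and 74 in replicate 2, that of Smo 121 and 70, and that of Gli3 112 and 72. Those of Gli1 had signals of 82 and 64, of Hhip 67 and 53, of Ptch1 61 and 64, and of Shh 46 and 42. Over all genes with such a peak the median was 112 in replicate 1 and 68 in replicate 2. At the starts of basic transcripts, Gli2, Smo and Gli3 were thus at or above the median in both replicates. Shh, Ptch1, Hhip and Gli1 were below it in both. The place of Ptch1 rests on that transcript set. Within 500 bp of a Ptch1 start outside the set, at chr13:63563815, the highest signals were 112 and 72. Shh was lowest in both replicates. Of the neighbours in this order, Gli2, Gli3 and Smo lay within 4 units of signal in replicate 2, and Ptch1 and Gli1 were equal there, at 64. Hhip stood above Ptch1 in replicate 1 and below it in replicate 2.

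**Figure D1:**
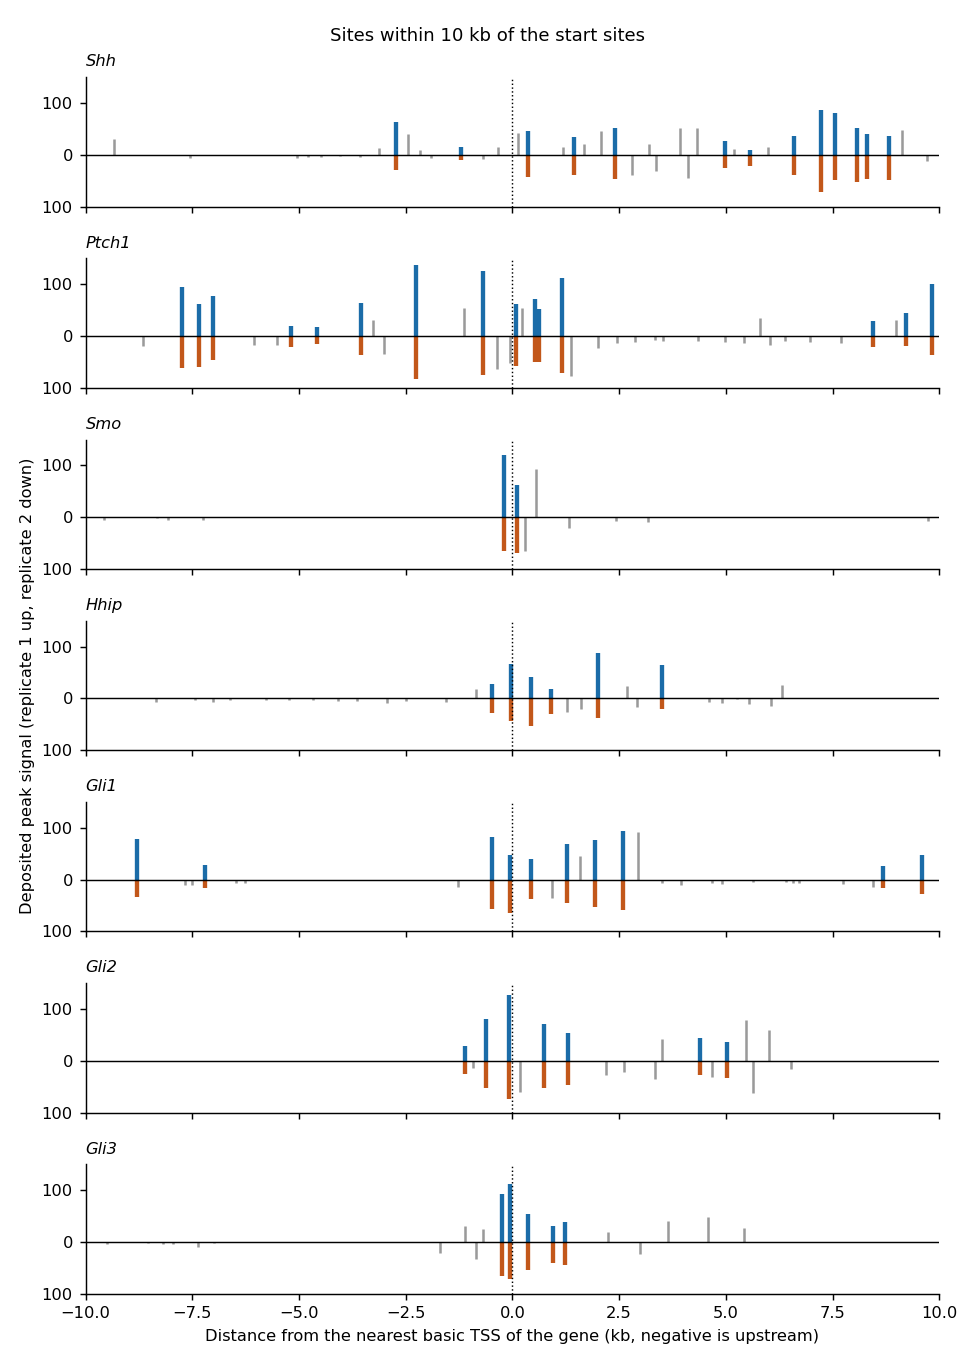
Sites within 10 kb of the start sites of the 7 genes. The horizontal axis is the distance in kb from the nearest start of a basic transcript, negative upstream; the vertical axis is the deposited peak signal, replicate 1 upward in blue and replicate 2 downward in orange for consensus sites, grey for sites of 1 replicate. Smo has 2 consensus sites in this window, at its start, while Shh, Ptch1 and Gli1 have rows of them.

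Shh encodes the secreted ligand. The gene lies on the minus strand at chr5:28456815-28467256. Its highest TSS peaks were 311 bp from the start in replicate 1 and 251 bp in replicate 2, at the 5′ UTR in the first exon. Replicate 1 also had a peak 51 bp away, with a signal of 42, which replicate 2 did not share. With a window of 150 bp in place of 500 bp Shh was therefore the 1 member without a TSS peak in both replicates.

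The accessible DNA of Shh lay more within the gene than at its start. In a gene of 10.4 kb, 12 consensus sites overlapped the gene, or 11.5 per 10 kb, the highest density of the 7 members. That of Gli1 was 5.79 per 10 kb, that of Ptch1 3.22 and that of Smo 1.55. For Gli2, Gli3 and Hhip it was 0.638, 0.637 and 0.543. Shh was also the shortest of the 7 genes, followed by Gli1 at 12.1 kb. Sites near a start weigh more in such a density where the gene is short. The density over other genes of this length was not computed. Intron 2 of Shh, 2718 bp long, held 5 consensus sites, and intron 1, of 4877 bp, held 4. Textbook enhancers that drive Shh in the ventral midbrain and floor plate lie in intron 2. Their positions within the intron were not compared with the sites found here. The 2 sites of that intron with the highest mean percentile are printed next as the main accessible DNA of the gene; neither holds any of the 8 short sequences searched, so no base is in capitals.
Shh intron 2 chr5:28459956-28460105: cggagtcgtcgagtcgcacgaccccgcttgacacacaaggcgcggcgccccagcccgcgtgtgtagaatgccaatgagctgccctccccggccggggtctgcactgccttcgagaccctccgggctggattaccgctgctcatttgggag
Shh intron 2 chr5:28459576-28459805: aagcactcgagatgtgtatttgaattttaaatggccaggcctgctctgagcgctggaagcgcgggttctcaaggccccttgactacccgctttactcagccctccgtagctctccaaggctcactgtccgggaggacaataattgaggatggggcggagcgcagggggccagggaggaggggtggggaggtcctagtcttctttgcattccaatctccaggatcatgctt
The first had signals of 86 in replicate 1 and 71 in replicate 2, and the next 81 and 48. Both were above the signals at the Shh start in each replicate. The other 3 sites of the intron had signals of 41 and 46, 51 and 53, and 36 and 40.

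The Shh gene ranked higher in replicate 2. All 12 consensus sites that overlap it had a higher percentile of signal in replicate 2, by a median of 18.2 percentile points, beside a median of 3.52 over all consensus sites and the 70.6% given above. The shift was not confined to the gene. Over all 38 consensus sites of the Shh span the median was 12.9 points, and 34 had a higher percentile in replicate 2. For the spans of the other members the median ran from 1.55 at Smo to 11.4 at Gli3 and 11.7 at Hhip. Among sites centred within the gene itself it was 17.2 at Shh, 11.8 at Gli3, 10.8 at Smo and 8.24 at Hhip. For Gli1, Ptch1 and Gli2 it was 5.98, 4.9 and 0.669, and all 6 such Gli1 sites had a higher percentile in replicate 2. At 7 of the 12 sites that overlap the Shh gene the raw signal was also higher in replicate 2. Over all consensus sites it was higher there at 10.4%. Among sites centred within the gene it was so at 2 of 3 for Smo, 2 of 4 for Hhip and 3 of 16 for Gli3. For Ptch1 it was 2 of 21, for Gli1 0 of 6 and for Gli2 0 of 13. Hotspots, the authors' broader enriched regions, differed in the same place. In replicate 2 a single hotspot of 8588 bp ran from chr5:28458706 to chr5:28467293 and covered most of the gene. In replicate 1 the one over the start was 594 bp wide, and separate hotspots of 2551, 1045 and 2162 bp covered parts of the gene body. All of these were at the ceiling of 100 of the deposited −log10 q-value. The part of tissue composition, depth and instrument in this difference was not tested, and with 1 library each they cannot be told apart from the replicate.

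**Figure D2:**
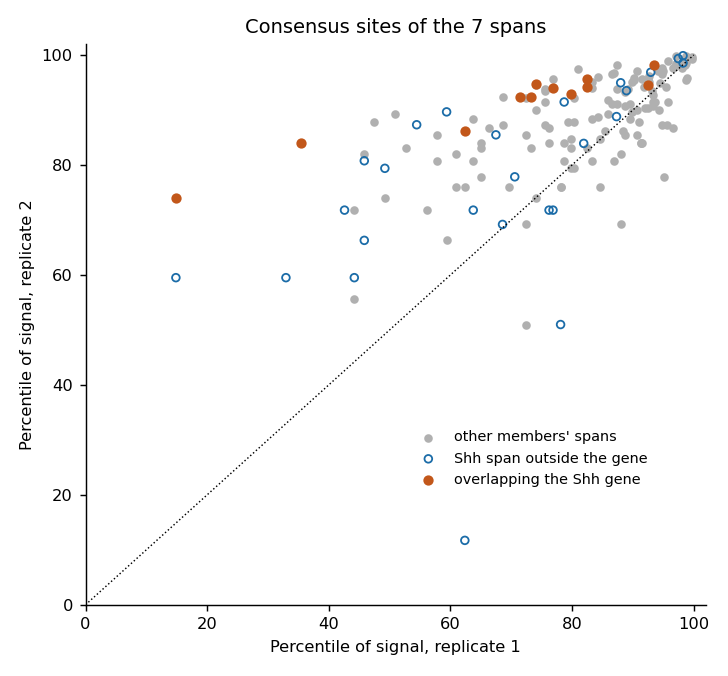
Percentile of signal in replicate 1 (horizontal axis) and replicate 2 (vertical axis) for the 167 consensus sites of the 7 spans, 1 point each; the dotted line marks equal percentiles. The 12 sites that overlap the Shh gene, in filled orange, all lie above the line.

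Outside the gene, the Shh span of 1110 kb held 26 further consensus sites, 23 of them upstream. One lay 15.9 kb downstream of the start, at chr5:28451316-28451485, with signals of 83 and 60. Upstream, the first 100 kb held 2 consensus sites, at -1205 bp (15 and 10) and -2725 bp (63 and 30). From 100 to 200 kb there was none, and from 200 to 700 kb there were 8. From 700 to 1000 kb, across Rnf32, Lmbr1 and Nom1, there were 13. The starts of these 3 neighbours held the strongest sites of the span: Rnf32 with signals of 122 and 74, Lmbr1 with 122 and 95, and Nom1 with 115 and 84.

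Lmbr1 intron 5 is known for the limb enhancer of Shh. The intron, 30852 bp long, held 2 consensus sites in these libraries. Where the enhancer lies within the intron was not determined here, so neither site is identified with it. The stronger is printed here because it was the strongest site of the span inside an Lmbr1 intron.
Lmbr1 intron 5 chr5:29293316-29293465: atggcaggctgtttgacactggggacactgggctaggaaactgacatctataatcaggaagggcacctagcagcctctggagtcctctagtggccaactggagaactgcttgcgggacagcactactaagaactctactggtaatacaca
It lay at -826 kb from the Shh start and had signals of 68 in replicate 1 and 44 in replicate 2, at percentiles of 88.9 and 93.5. The other, at chr5:29303896-29304105, had signals of 5 and 10. The same intron held 29 sites of replicate 1 alone and 3 of replicate 2 alone. The 29 lay within 17.2 kb, with signals of 2 to 7 and a median of 4. Within that stretch replicate 2 had no peak except at the weak consensus site.

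**Figure D3:**
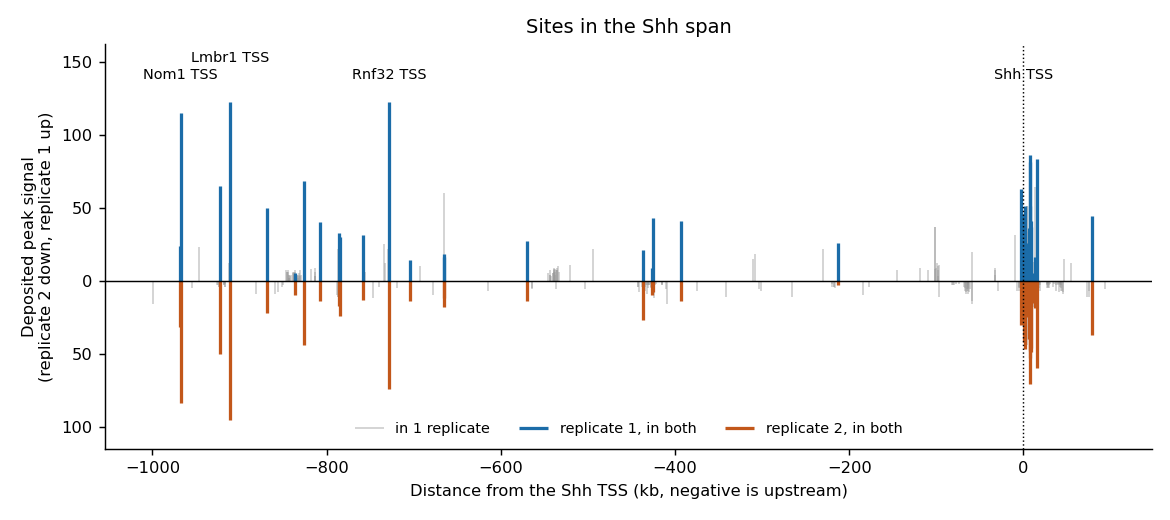
Sites of the Shh span by distance from the Shh start in kb (horizontal axis, negative upstream). The vertical axis is the deposited peak signal, replicate 1 upward in blue and replicate 2 downward in orange for consensus sites, with sites of 1 replicate in grey. The strongest lines outside the Shh gene stand at the starts of Rnf32, Lmbr1 and Nom1, and low grey clusters of 1 replicate recur along the upstream side.

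Ptch1, the receptor and a target of the pathway, had a broad accessible block at its 5′ end. The gene spans chr13:63508328-63573598 on the minus strand, and 21 of the 28 consensus sites of its span overlapped it. From 1154 bp downstream to -2266 bp upstream of the basic starts lay 6 consensus sites. The strongest, at chr13:63567896-63568105 and -2266 bp, had signals of 137 in replicate 1 and 84 in replicate 2, the highest mean percentile among the consensus sites whose nearest start was that of a member. The site with the Gli match at -696 bp followed with 125 and 75, and one in intron 2 at 1154 bp had 112 and 72. These were above the peaks within 500 bp of the basic starts, at 61 and 64. In replicate 2 a hotspot of 8221 bp covered the block, whereas in replicate 1 separate hotspots of 1465, 406, 551, 1723 and 2623 bp lay over it. A further group of 3 sites stood between -7006 and -7736 bp, at the start of the transcript that is outside the basic set, with signals of 78 and 47, 62 and 59, and 95 and 62. In intron 2, 9834 bp downstream, a site at chr13:63554576-63554825 had signals of 101 and 37. Farther out, Fancc, a gene of DNA repair, had TSS signals of 128 and 85.

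Hhip encodes a membrane protein that binds and sequesters the ligand. It had 6 consensus sites, all between -485 and 3515 bp of its start at chr8:80058006, and none elsewhere in its span of 292 kb. Its site of highest mean percentile was in intron 1 at 1995 bp, with signals of 87 in replicate 1 and 37 in replicate 2; in replicate 2 the sites at 435 and -35 bp were stronger, at 53 and 43. It is printed because it is the strongest intronic site of Hhip by mean percentile; capitals mark ACAATG, a Sox-type sequence, and ATTTGCAT, the POU octamer.
Hhip intron 1 chr8:80055876-80056145: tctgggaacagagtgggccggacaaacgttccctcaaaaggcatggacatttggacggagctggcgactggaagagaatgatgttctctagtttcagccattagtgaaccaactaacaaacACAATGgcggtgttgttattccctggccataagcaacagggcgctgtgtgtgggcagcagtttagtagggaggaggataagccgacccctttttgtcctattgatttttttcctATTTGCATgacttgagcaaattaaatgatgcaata
The single distal site, at 3515 bp in the same intron, had 65 and 20. At the start, sites at -35 and 435 bp had 67 and 43, and 41 and 53. As at Shh and Ptch1, the hotspot over the start was far wider in replicate 2, at 5359 bp against 431 bp. It was also wider there at Gli2 (3742 against 1262 bp), Smo (2493 against 1547), Gli3 (3973 against 2772) and Gli1 (1260 against 1034). Over all hotspots the 99th percentile of width was 2342 bp in replicate 2 and 1695 bp in replicate 1, and the median 201 and 214 bp.

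Smo, the transducer that Ptch1 holds in check, had few sites of its own beyond its start. The start at chr6:29735694 had consensus sites at -193 bp (121 and 65) and 97 bp (63 and 70). The gene held 2 others, at 12937 bp in intron 1 (39 and 45) and 22957 bp in intron 9 (70 and 29). The strongest distal site of the span, at -27563 bp in intron 1 of Tspan33, had 91 and 50. The neighbours Tspan33 and Ahcyl2 had TSS signals of 126 and 52, and 115 and 70.

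Gli1, a transcriptional activator and the most used readout of pathway activity, had a compact row of sites over its start and intron 2. Sites lay upstream of the start at chr10:127341974, at -57 bp (48 and 64) and -477 bp (82 and 56). Others lay in introns 1 and 2, at 443 bp (39 and 37), 1283 bp (69 and 45), 1933 bp (77 and 53) and 2583 bp (94 and 58). The last was the strongest distal site of the Gli1 span and is printed for that reason; like the Lmbr1 and Gli3 sites shown, it holds none of the short sequences searched.
Gli1 intron 2 chr10:127339316-127339465: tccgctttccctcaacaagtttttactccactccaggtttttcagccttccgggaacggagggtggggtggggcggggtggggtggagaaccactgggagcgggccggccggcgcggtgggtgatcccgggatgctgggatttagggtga
No exact match of GACCACCCA lay in any Gli1 site, and the nearest, at 10540 bp, was outside every peak. The span is gene-dense. The starts of Kif5a, Dctn2, Mbd6, Ddit3, Mars and R3hdm2 all had TSS peaks in both replicates, Inhbe in replicate 1 only (33), and Arhgap9 and Inhbc in neither. Of the 29 consensus sites of the span, 7 overlapped Gli1.

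Gli2, the main activator at the start of signalling, and Gli3, mainly a repressor, are long genes and carried their sites in introns. At the start of Gli2, at chr1:119053619, the strongest consensus site had signals of 127 and 74. Introns 1 and 2 held 6 and 7 consensus sites, and introns 3 to 13 held none. Upstream, 4 sites stood between -29172 and -40312 bp, and these took all 3 of the highest ranks among distal sites of Gli2. Their signals were 98 and 47, 82 and 51, and 72 and 54, and the fourth had 61 and 36. The first is printed as the distal site with the highest mean percentile, with capitals on CTTTGT, which is ACAAAG on the minus strand.
Gli2 upstream chr1:119083716-119083905: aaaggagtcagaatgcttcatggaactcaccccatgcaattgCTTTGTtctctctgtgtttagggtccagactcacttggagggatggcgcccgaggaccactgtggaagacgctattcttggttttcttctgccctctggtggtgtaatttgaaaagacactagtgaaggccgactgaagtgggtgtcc
At the start of Gli3, at chr13:15463251, the consensus site at -60 bp had signals of 112 and 72. A site at -249 bp from the other basic start, at chr13:15463980, had 93 and 65. Intron 2, of 70235 bp, held 7 of the consensus sites of the gene. A group of 4 lay from 78271 to 80431 bp, with 108 and 26, 17 and 28, 85 and 35, and 74 and 33. The distal site with the highest mean percentile lay outside the gene, 295 kb downstream of the start, with 108 in replicate 1 and 66 in replicate 2.
Gli3 downstream chr13:15759216-15759425: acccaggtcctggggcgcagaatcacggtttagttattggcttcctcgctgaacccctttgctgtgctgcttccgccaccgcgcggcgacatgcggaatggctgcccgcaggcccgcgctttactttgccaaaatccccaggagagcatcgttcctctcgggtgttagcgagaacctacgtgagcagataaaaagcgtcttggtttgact
No protein-coding start other than that of Gli3 lay in this span, and the site lay at -252530 bp from the start nearest to it, that of Inhba.

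The members differed in how many distal consensus sites lay around them. Counted from 100 kb before to 100 kb after each gene, Ptch1 had 20, Gli2 19, Gli3 18, Shh 13, Smo 13, Gli1 10 and Hhip 1. The median over all genes was 6 and the 90th percentile 16, and 89.8% of genes had at least 1. Ptch1, Gli2 and Gli3 lay above the 90th percentile, at percentiles of 94.4, 93.6 and 92.6, and Hhip at 13.2. Long genes have wider spans. Per 100 kb of span, Ptch1 had 7.54, Shh 6.18, Smo 5.76, Gli1 4.71, Gli2 4.53, Gli3 3.86 and Hhip 0.342. Over all genes the median was 2.56 and the 90th percentile 6.62, which Ptch1 alone of the 7 passed. By this density Ptch1 was at a percentile of 93.4, Shh at 87.9, Smo at 85.4 and Gli1 at 77.6. Gli2 was at 76.1, Gli3 at 68.4 and Hhip at 10.6. In the longer Shh span of 1110 kb there were 30. Hhip had the fewest under every consensus alternative tried, and 29 and 24 distal sites in replicate 2 and replicate 1 taken alone, so its count of 1 rests on what the replicates shared.

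**Figure D4:**
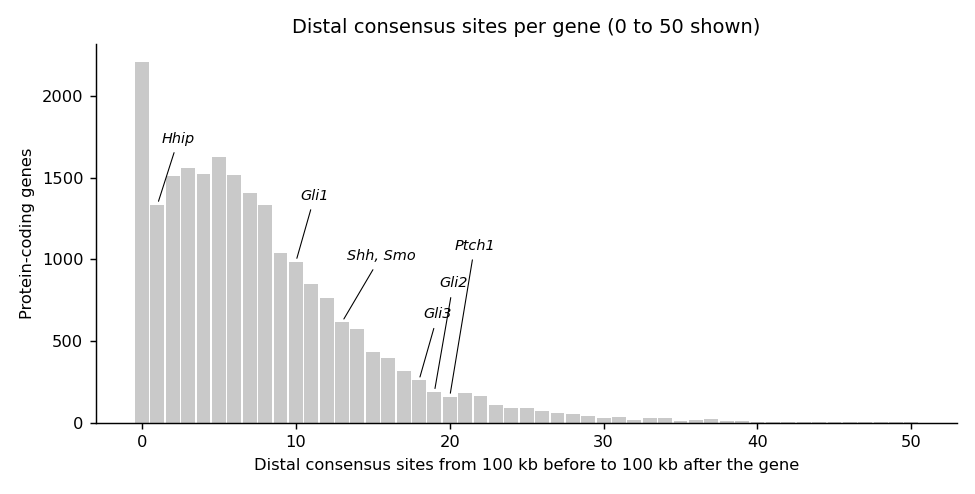
Number of protein-coding genes (vertical axis) by their number of distal consensus sites from 100 kb before to 100 kb after the gene (horizontal axis, 0 to 50 shown). The 7 members are marked at their counts, from 1 for Hhip to 20 for Ptch1; the median gene has 6.

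Within the 7 spans 33.1% of replicate 1 peaks overlapped a replicate 2 peak (95% Wilson interval 29.3 to 37.2) and 25.9% of replicate 2 peaks a replicate 1 peak (22.8 to 29.2), beside the 30.8% and 21.7% of all peaks; the intervals cover counting error only. The share of replicate 1 peaks ran from 21.9% at Hhip, 22.5% at Gli3 and 23.1% at Shh to 64.5% at Smo. Gli3 was the 1 member with more peaks in replicate 1 (111 against 90), and Smo had the highest ratio of replicate 2 to replicate 1 peaks, 2.77 (86 against 31). Hotspots covered 39.0 kb of the Shh span in replicate 1 and 65.3 kb in replicate 2, and for Smo 9.82 and 27.8 kb. The coverage was also greater in replicate 2 for Ptch1 (28.1 and 31.9 kb), Hhip (7.65 and 14.0 kb), Gli1 (18.6 and 33.9 kb) and Gli2 (17.97 and 20.2 kb), and smaller for Gli3 (29.3 and 23.9 kb). Some sites of 1 replicate were near misses: of 326 sites of replicate 1 alone, 100 lay within 500 bp of a replicate 2 peak, and of 447 of replicate 2 alone, 104 lay so near a replicate 1 peak. The like shares over all chromosomes were not computed, so these counts have no background beside them. The strongest sites of 1 replicate were near misses of this kind. At the Fancc start the replicate 1 peak of 128 lay 110 bp from a replicate 2 peak of 85. In Smo exon 1 a replicate 1 peak of 93 lay 110 bp from one of 65, and in Gli2 intron 1 peaks of 78 and 62 were 30 bp apart. An exception was a replicate 1 peak of 55 at -80685 bp from Hhip, 18750 bp from any peak of replicate 2.

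Of 35 other hedgehog pathway genes, 31 had a TSS peak in both replicates, 3 in replicate 2 only and 1 in neither, beside 65.5% of all genes with both. Both other ligands had one: Ihh, with signals of 40 and 51, and Dhh, with 43 and 40 and the most distal consensus sites of the list, 33. Like Shh they lay below the median signal of all genes in both replicates. Of the genes for lipidation and release, 5 of 5 had one, with Scube1 highest (128 and 80) and Hhat having the most distal consensus sites, 24. All 5 receptors and co-receptors did, and Gas1, which presents the ligand to Ptch1, led in both respects (133 and 74, with 17 distal sites). Among cilium and transducer genes it was 13 of 15. The kinase Gsk3b was highest (142 and 91), and Sufu, which restrains the Gli proteins, had the most distal sites, 29. Gpr161, a ciliary receptor that counters the pathway, had no TSS peak in either replicate, and Efcab7 had a weak one in replicate 2 only, at 4. Among target genes it was 6 of 8, with Mycn highest (128 and 73) and Nkx6-1, a ventral progenitor factor, having the most distal sites, 28. The floor plate factor Foxa2 (53) and Nkx2-9 (38) had theirs in replicate 2 only. The median number of distal consensus sites was 13 in this list and 13 in the 7 members.

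The other short sequences searched were about as frequent in the member spans as elsewhere. Of the 111 distal consensus sites, 17 held ACAAAG, found in Sox and TCF sites (15.3%, beside 16.8% of all distal consensus sites), 14 the E-box CAGCTG (12.6% beside 14.6%), and 9 held ACAATG (8.11% beside 9.82%). The homeodomain sequence TAATTA was in 4 (3.6% beside 3.5%), the forkhead sequence TGTTTAC in 2 (1.8% beside 1.78%) and ATTTGCAT in 1 (0.901% beside 1.44%). All were searched on both strands, and exact matches of GACCACCCA are also matches of GACCNCCCA. The median GC content was 50.7% in both sets.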

How the data were processed

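For each replicate the authors deposited DNase-seq peaks and hotspots made from that replicate's alignments alone, per the file headers and records. No aligner, caller, version or filter is given in the sources used here. Each deposited peak has a signal that is the authors' own value, with no stated normalization, and the hotspot q-value is deposited on a −log10 scale. Read depth is unknown. Only chromosomes 1 to 19 and X entered, with peaks merged at an overlap of at least 1 bp. TSSs were those of GENCODE vM21 basic transcripts. Percentiles are ranks of signal within a replicate. Counts and matches were computed with Python 3.11.15, pandas 2.3.3 and numpy 2.4.6 and checked on simulated data. Alternatives changed the window, overlap, span, transcript set and peak set.

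The members and lists were chosen with earlier results of these data known. Named were all members, the 3 distal consensus sites of each with the highest mean percentile and its strongest peak of each replicate alone, from each pathway role the gene with the highest mean TSS percentile, that with most distal consensus sites, up to 2 with no TSS peak, and neighbours with a TSS in a span. Other named sites and genes, among them Efcab7, Nkx2-9 and the cluster in Lmbr1 intron 5, were singled out after their values were seen. The replicates' spread may be technical, and no p-value was computed. 1 marker gene of the lists is not reported here.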

Additional observations from a re-analysis of the deposited data

How the results depend on the processing

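Of 97 values recomputed under another setting, 62 stayed within 1.5 times the count or within the interval of the share given above and 35 moved further. All 7 members kept a TSS peak in both replicates except under a window of 150 bp, which left 6, and 28 to 32 of the 35 other pathway genes did. With 1 replicate alone the other pathway genes with a TSS peak numbered 31 in replicate 1 and 34 in replicate 2. The 111 distal consensus sites became 75 to 125 under other overlaps, spans, distances and hotspots. With sites of 1 replicate alone they became 389 to 514, since no second replicate is then required. The 33.1% of replicate 1 peaks shared became 23.0% at 50% reciprocal overlap, 52.6% among the stronger 50% of peaks, 37.5% with 100 kb either side of Shh and 40.6% for hotspots. The 25.9% of replicate 2 peaks shared became 17.6% at 50% reciprocal overlap and 38.2% among the stronger 50%. Gli3 fell from 18 to 8 distal sites at 50% reciprocal overlap, Shh from 30 to 12 at 50 kb either side, Smo from 13 to 7 and Gli1 from 10 to 6. With a window of 300 bp exact Gli matches stayed at 3 distal sites, while the share over all distal consensus sites went from 0.201% to 0.352%. Added after seeing the data, 50% reciprocal overlap left 6 Shh gene sites and the stronger 50% left 10, with a higher percentile in replicate 2 at all of them. No paired analysis was possible because there is 1 group. Depth is unknown, so an absent peak may be a shallow one.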
